A study of Mus musculus with 9 samples.

Results

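The growth hormone and STAT5 axis was examined here through 9 genes: the receptor gene Ghr, its kinase Jak2, the transcription factors Stat5a and Stat5b, and the STAT5-regulated genes Cish, Socs2, Socs3, Igf1 and Bcl6. All 9 were found in the platform's annotation among 18193 genes, on 25 of the 34945 probe sets that name a single gene. All 9 had at least 1 probe set bright enough to test, as did 9697 genes of the whole series, and 19 of the 25 probe sets were that bright. The genes were chosen by name with earlier results of these data in view, among them the lower Cish and Igf1 of early muscle. For these genes early against control is therefore given without p values, its calls are counted only as a description, and nothing is supported with it.

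Quadriceps femoris, a thigh muscle, was taken from 9 female mice labelled C57Bl/6 HT transgenic, in which stopping doxycycline switches on a self MHC class I gene in skeletal muscle. Control mice (n = 3) stayed on doxycycline throughout and were killed at 35 days. Early mice (n = 3) came off the drug at 21 days and were killed at 35 days, so that the gene was on for 2 weeks. Late mice (n = 3) came off it at 35 days and were killed at 50 days. The treatment protocol describes the controls as carrying a single transgene, whereas their strain label equals that of the induced mice, so their genotype is not settled. Late mice were older than the other groups, and age and induction cannot be told apart wherever they are compared. The labels do not name the promoter; in the published model of this name the drug-repressed activator is driven by the muscle creatine kinase promoter. Each array holds the RNA of 1 sample, and values are log2 expression, so a difference of 1 is a 2-fold change.

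Growth hormone from the pituitary binds its receptor, which activates the kinase JAK2; JAK2 phosphorylates STAT5A and STAT5B, which enter the nucleus and bind DNA at palindromic sites. Among the genes they switch on are Cish and Socs2, whose products dampen the receptor's signal, and Igf1, the growth factor that mediates much of the hormone's effect on muscle growth after birth. Bcl6 encodes a transcriptional repressor that STAT5 can bind and repress, and Socs3 encodes an inhibitor of JAK2 that responds strongly to interleukin-6-type cytokines through STAT3.

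The transgene's family was first checked. H2-K1, a classical class I heavy chain gene, lay between 10.21 and 10.88 in the controls, between 14.63 and 14.69 in the early arrays and between 13.11 and 14.31 in the late arrays on its brightest probe set, where no induced array overlapped the controls. On another of its 4 probe sets the groups overlapped, with 10.87 to 11.65 in the controls, 11.55 in early 3 and 11.35 in late 1. Array medians lay between 3.41 and 3.45. The summed signal of 12 muscle fibre markers differed little between arrays, between 18.83 and 19.01 on the log2 scale, and all 12 were above the brightness filter. None of 8 liver markers passed it, and 7 of these are on the array. Early 3 stood apart from the other early arrays: its mean correlation with the control arrays over all probe sets was 0.994, against 0.979 and 0.987 for early 1 and early 2. Results that rest on it are given with and without it.

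Cish, which encodes the STAT5-induced suppressor CIS, was the member that differed most between groups. Its promoter window is shown because it carries more than 1 copy of the STAT5 site. The window runs from 250 bases before to 50 bases after the annotated start of the gene in RefSeq on GRCm38.p6, and the site searched was TTCNNNGAA, which reads the same on both strands. Windows were found for 8 of the 9 members, 12 windows in all. A match lay in 4 of these 12, those of Cish, Socs3 and Bcl6 at both of its starts, against 8.30% of all 32851 windows. The Cish window held 2 matches, starting at the first base of the gene and 11 bases after it; 0.457% of all windows held 2 or more. The second Bcl6 window held 3, as did 0.0335% of all windows. No match was found in the windows of Igf1, Ghr, Jak2, Stat5a and Stat5b. Capitals mark the matches, and each stretch is written 5′ to 3′ on the gene's own strand.
Cish, chr9:107296559-107296683, plus strand: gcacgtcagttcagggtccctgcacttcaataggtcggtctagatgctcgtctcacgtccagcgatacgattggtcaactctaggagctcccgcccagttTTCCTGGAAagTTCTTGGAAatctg
Bcl6, second start, chr16:23981333-23981481, minus strand: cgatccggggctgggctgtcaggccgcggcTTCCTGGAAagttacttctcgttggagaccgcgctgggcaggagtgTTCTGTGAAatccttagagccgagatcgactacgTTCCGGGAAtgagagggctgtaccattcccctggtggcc
Socs3, chr11:117969482-117969550, minus strand: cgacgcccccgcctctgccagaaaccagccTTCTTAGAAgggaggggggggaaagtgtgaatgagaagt
These matches describe letters only. Whether they are bound by STAT5, or bear on the transcript levels given below, was not tested.

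Cish was read by 1 probe set. It stood at 5.95, 6.60 and 6.84 in control 1, 2 and 3, at 2.90, 3.18 and 4.97 in early 1, 2 and 3, and at 7.47, 7.74 and 7.90 in late 1, 2 and 3. No group overlapped another, with early lowest and late highest. All 3 early values lay under the filter's floor of 5, where signal is hard to tell from background, so the size of a difference from early muscle is uncertain. The means were 6.46 ± 0.46 in control, 3.68 ± 1.13 in early and 7.71 ± 0.22 in late muscle (SD, n = 3). The early minus control difference was -2.78 ± 0.49 (SE), or -1.46 with early values raised to the floor.

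**Figure D1:**
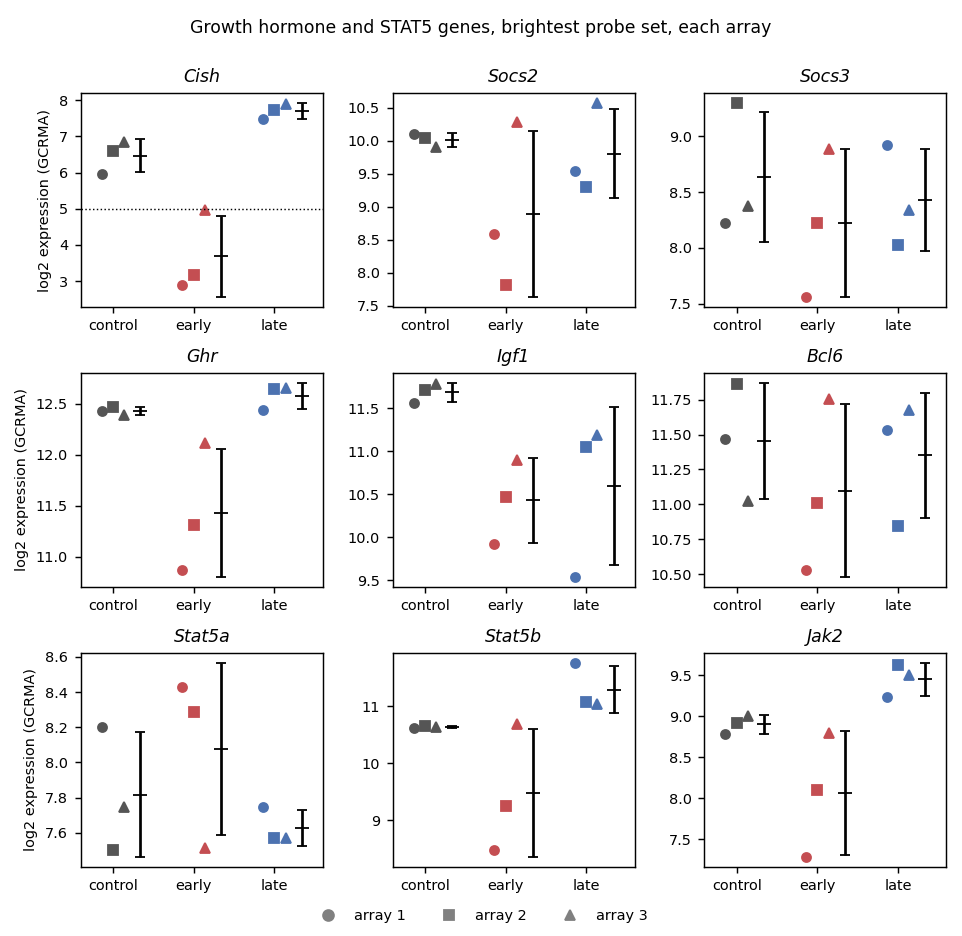
Log2 expression (vertical axis, a separate scale per gene) of the brightest probe set of each of the 9 genes in control, early and late muscle; circles, squares and triangles are arrays 1, 2 and 3, and the bar beside them is the mean ± SD (n = 3). The dotted line in the Cish panel is the filter's floor of 5. The 3 early Cish values lie below every other Cish value, and early 3 lies near the controls for Socs2, Ghr, Stat5b and Jak2.

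Socs2, the other feedback inhibitor of the receptor, was read by 6 probe sets, of which 2 passed the filter. The brightest gave 10.11, 10.04 and 9.90 in the controls, 8.58, 7.81 and 10.28 in early 1, 2 and 3, and 9.54, 9.30 and 10.58 in late 1, 2 and 3. Early 1 and early 2 were below every control, while early 3 was above every control. The other passing probe set gave 6.59 and 7.14 in early 1 and early 2, 9.06 in early 3, and 9.21 to 9.46 in the controls. There early 3 lay just under the controls, so the groups did not overlap on it. Of the 4 dim probe sets, the brightest reached 5.03 in late 2 and 6.33 in late 3 and stayed under 5 elsewhere.

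Ghr, the growth hormone receptor, was lower in every early array than in any control on its brightest probe set. It read 12.43, 12.47 and 12.39 in the controls, 10.87, 11.31 and 12.11 in early 1, 2 and 3, and 12.43, 12.65 and 12.66 in late 1, 2 and 3. Early 3 lay closest to the controls, which differed little among themselves. The other 2 probe sets placed early 1 and early 2 below the controls as well, at 9.64 and 9.49 against at least 10.36, and at 5.74 and 5.23 against at least 7.22. On these, early 3 read 10.52, inside the control range, and 6.48, below it.

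Jak2, the kinase bound to the receptor, had the same order of groups as Ghr. Its brightest probe set gave 8.78, 8.92 and 9.001 in the controls, 7.28, 8.10 and 8.79 in early 1, 2 and 3, and 9.23, 9.62 and 9.50 in late 1, 2 and 3. Early 3 lay inside the control range, and all 3 late arrays lay above it. The second probe set showed the late arrays higher still against the controls, at 9.02, 9.16 and 8.96 against 7.997, 7.83 and 8.21.

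Stat5b, the STAT5 form that carries most of the growth hormone response outside the mammary gland, gave 10.63, 10.65 and 10.64 in the controls on its brightest probe set. Early 1, 2 and 3 read 8.48, 9.25 and 10.69, and late 1, 2 and 3 read 11.77, 11.07 and 11.03. The second Stat5b probe set did not follow: all its 9 values lay between 7.31 and 7.74. The 2 probe sets of Stat5b therefore disagree, and the values of the brighter one cannot be taken as those of every Stat5b transcript.

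Stat5a, the neighbouring and closely related gene, did not follow the brighter Stat5b probe set. It gave 8.20, 7.50 and 7.75 in the controls, 8.43, 8.29 and 7.52 in early 1, 2 and 3, and 7.75, 7.57 and 7.57 in the late arrays. Early 1 and early 2 were above every control, and early 3 was inside the control range. A second, dim Stat5a probe set reached 5.0005 and 5.13 in early 1 and early 2 and stayed at or below 3.99 in the other 7 arrays. STAT5 transcripts are alike in sequence, and probe sets of one may read the other.

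Igf1, the growth factor, was lower than the controls in both induced groups. Its brightest probe set gave 11.56, 11.71 and 11.77 in the controls, 9.92, 10.46 and 10.90 in early 1, 2 and 3, and 9.54, 11.05 and 11.18 in late 1, 2 and 3. No induced array reached the lowest control, and late 1 was the lowest of all 9. Each of the 4 Igf1 probe sets placed all 6 induced arrays below all 3 controls, and late 1 lowest. Late muscle thus had the highest Cish and a low Igf1.

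Bcl6 and Socs3 overlapped between all groups. Bcl6 gave 11.47, 11.86 and 11.03 in the controls, 10.53, 11.01 and 11.76 in early 1, 2 and 3, and 11.53, 10.84 and 11.68 in late 1, 2 and 3. Socs3 gave 8.22, 9.30 and 8.38 in the controls, 7.56, 8.23 and 8.88 in the early arrays, and 8.92, 8.03 and 8.34 in the late arrays. Both Socs3 probe sets that passed are of a type that can read other transcripts.

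**Figure D2:**
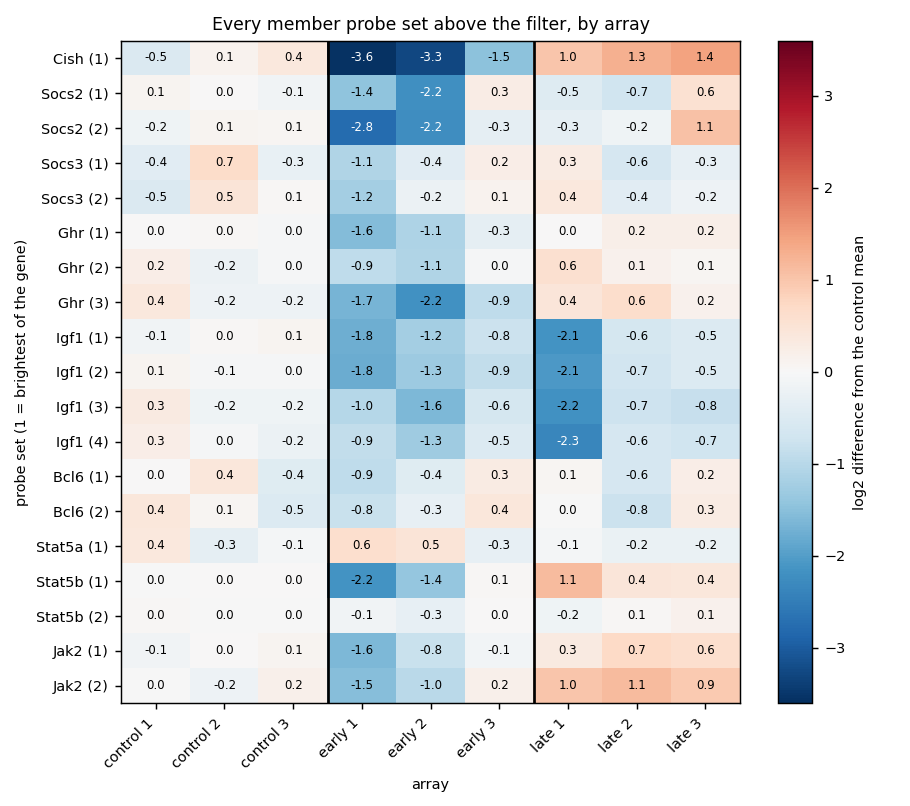
Log2 difference of each array (columns) from the mean of the 3 controls for the 19 probe sets of the 9 genes that passed the filter (rows, 1 being the brightest of its gene); blue is lower and red is higher. The early 1 and early 2 columns are blue for Cish, Socs2, Ghr, Igf1 and Jak2. Early 3 is clearly blue for Cish, Igf1 and the third Ghr row, and the second Stat5b row stays near 0.

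Early against control compares muscle of the same age with and without 2 weeks of induction. Early mice were also off doxycycline, and the genotype of the controls is not settled. Class I expression cannot be told apart from these here. In this contrast, which the choice of genes used, 1 of the 9 genes was called at an adjusted p under 0.05 (limma, Benjamini-Hochberg over 9697 genes), Cish, where 1.19% of all genes were called. Cish, Ghr and Igf1 were lower in every early array than in any control, 3 of 9 genes, where 13.9% of all genes were lower without overlap. The log2 differences were -1.13 ± 0.57 for Socs2, -1.002 ± 0.27 for Ghr, -0.84 ± 0.33 for Jak2, -1.16 ± 0.48 for Stat5b and -1.26 ± 0.42 for Igf1 (SE). They were -0.36 ± 0.35 for Bcl6, -0.41 ± 0.40 for Socs3 and 0.26 ± 0.26 for Stat5a. The median over the 9 genes was -1.002, beside -0.03 over all genes tested. The call of Cish ended when any 1 array other than early 3 was left out. Without early 3, 5 of the 9 genes were called, all lower, where 18.1% of all genes were: Cish, Socs2, Ghr, Stat5b and Jak2. The differences were then -3.42, -1.82, -1.34, -1.77 and -1.21 in that order. Nothing is read from these counts against the shares over all genes, since the genes were chosen on this contrast.

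The early arrays thus did not move alike. Against the range of the 3 controls, 8 of the 9 genes were below it in early 1 and 7 in early 2, with Stat5a above it in both. In early 3, 3 genes were below it (Cish, Ghr and Igf1), 4 inside it and 2 above it (Socs2 and Stat5b). Over all genes tested, the share below the control range was 41.9%, 36.3% and 34.8% in early 1, 2 and 3.

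Markers of other cell types were summed in each array, and not all followed the split of early 3 from early 1 and early 2. The summed signal of 12 macrophage markers of 13 listed was 14.45 and 13.89 in early 1 and early 2 but 12.58 in early 3, beside 12.73 to 13.14 in the controls and 12.55 to 12.97 in the late arrays. The only macrophage marker under the filter was Itgam. Slow fibre markers, 9 of 10 above the filter, spread widely within groups: 12.28 to 13.71 in the controls, 15.15, 13.81 and 12.21 in early 1, 2 and 3, and 15.95, 15.38 and 12.61 in late 1, 2 and 3. Adipocyte markers, 7 of 10, summed to 14.16 to 14.39 in early muscle, 14.59 to 15.20 in the controls and 14.02 to 15.08 in late muscle, with Plin1, Lep and Cfd not among those tested. Fibroblast markers, all 10 above the filter, were lowest in late 1, at 15.77 against 16.39 to 16.72 in the controls and 16.22 to 16.65 in early muscle. Late 1 was also the array with the least Igf1. Endothelial markers, 9 of 10, ranged from 11.25 to 11.59 in early, from 11.52 to 11.90 in control and from 11.43 to 11.69 in late muscle. The part of these cells in the members' values was not tested. In whole muscle, fewer cells of a type and less RNA per cell cannot be told apart.

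**Figure D3:**
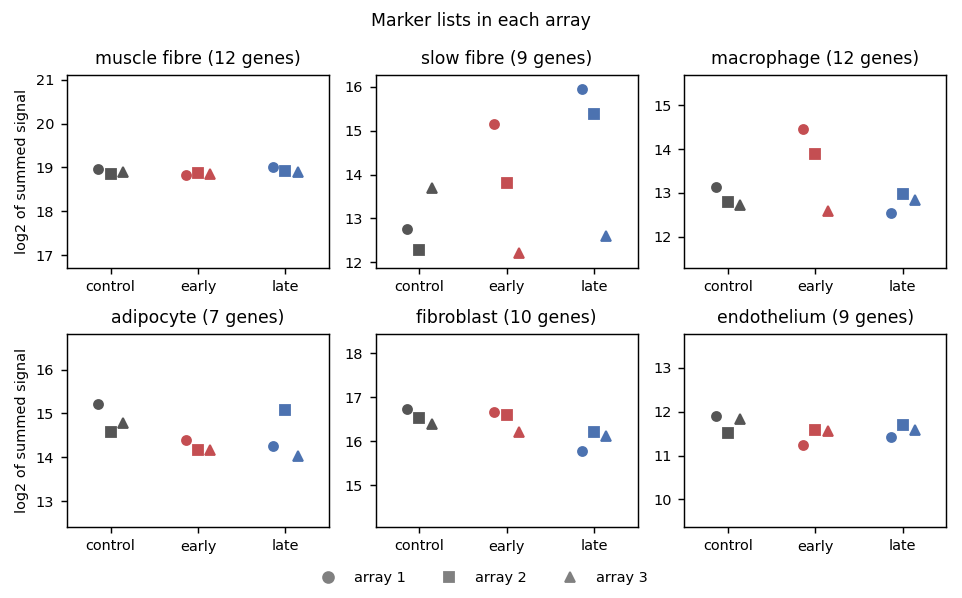
Log2 of the summed linear signal (vertical axis, the same span in each panel) of 6 marker lists in each array of control, early and late muscle; circles, squares and triangles are arrays 1, 2 and 3. Muscle fibre markers lie between 18.83 and 19.01 in all arrays, macrophage markers are high in early 1 and early 2 only, and slow fibre markers spread within every group.

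Of lymphocyte and granulocyte markers few were bright enough to test: 1 of 11 for T and NK cells (Cd28), with the Cd3 genes, Cd4 and Cd8a not among those tested, 2 of 8 for B and plasma cells, and 4 of 10 for neutrophils and mast cells. In early 1, 2 and 3 the B and plasma markers summed to 6.78, 7.77 and 10.95, in the controls to 10.56 to 11.16, and in late 1, 2 and 3 to 8.19, 11.61 and 12.29. Cd28 gave 5.51, 5.12 and 5.81 in the early arrays, 5.98 to 6.88 in the controls and 3.76 to 5.96 in the late arrays. Neutrophil and mast cell markers gave 8.30 to 9.16 in early, 8.81 to 9.38 in control and 8.34 to 9.25 in late muscle. Satellite cell and myoblast markers, 7 of 8, gave 10.24 to 10.46 in early, 10.72 to 10.93 in control and 10.31 to 10.51 in late muscle. Schwann cell markers, 6 of 8, gave 11.40 to 11.82, 12.20 to 12.59 and 11.93 to 12.49 in the same order.

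Late against control sets induction begun at 35 days against younger, uninduced muscle. None of the 9 genes was called here by limma, where 0.206% of all genes were, and 2 of them, Cish and Igf1, had an unadjusted p under 0.05, as did 17.3% of all genes. Cish, Stat5b and Jak2 were higher in every late array than in any control, where 16% of all genes were, and Igf1 was lower in every late array, where 14.9% of all genes were. Cish differed by 1.24 ± 0.49 (adjusted p = 0.257), Jak2 by 0.55 ± 0.33 (adjusted p = 0.409) and Stat5b by 0.65 ± 0.48 (adjusted p = 0.512). Igf1 differed by -1.09 ± 0.42 (adjusted p = 0.245), and by -0.57 without late 1. For Ghr the difference was 0.15 with a 95% interval from -0.47 to 0.76, and for Socs2 it was -0.21, from -1.50 to 1.08. For Socs3 (-0.20), Bcl6 (-0.10) and Stat5a (-0.19) the intervals also included 0. Of the 19 probe sets tested one by one, none was called, where 0.162% of all probe sets were. The second Jak2 probe set differed by 1.03 ± 0.36 (adjusted p = 0.221). The second Stat5b probe set differed by 0.012 ± 0.14 (adjusted p = 0.977), and on it late and control muscle overlapped.

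**Figure D4:**
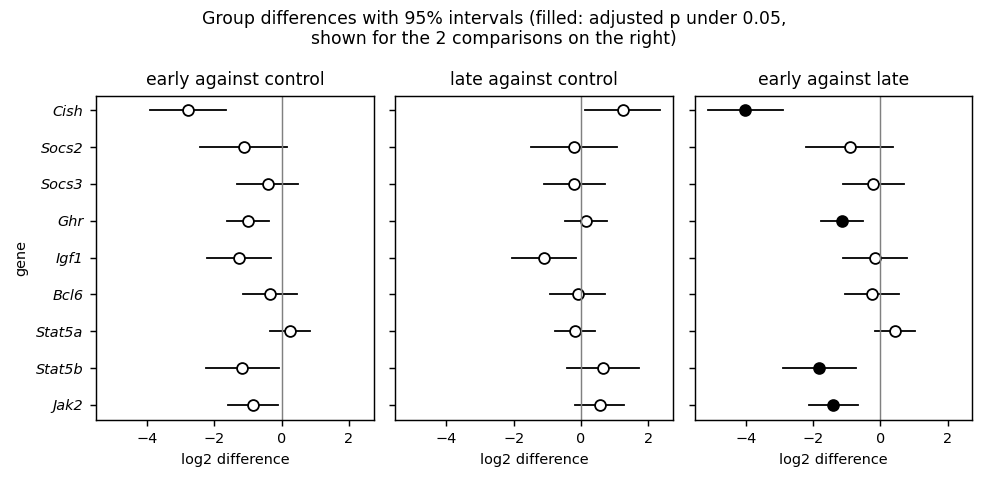
Log2 differences between groups (horizontal axis) for the 9 genes (vertical axis) with their 95% intervals from limma over all 9 arrays; filled points are genes called at an adjusted p under 0.05 in late against control or early against late, and early against control is shown without calls. In early against late, Cish, Ghr, Stat5b and Jak2 are filled and lie below 0, and Igf1 lies at -0.16.

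Early against late compares the inductions directly, at different ages. It shares the early arrays with the contrast that led to the choice of genes, so it is not independent of that choice. Here 4 of the 9 genes were called lower in early muscle, Cish, Ghr, Stat5b and Jak2, and none higher, where 11.5% of all genes were called. The same 4 did not overlap between the groups, where 18.3% of all genes were lower in early muscle without overlap. Cish was lower in early than late muscle by 4.02 ± 0.49 on the log2 scale (adjusted p = 0.00578). The difference was -2.71 with early values raised to the floor. Jak2 was lower by 1.39 ± 0.33 (2.63-fold, adjusted p = 0.0341), Ghr by 1.15 ± 0.27 (2.22-fold, adjusted p = 0.0354) and Stat5b by 1.82 ± 0.48 (3.52-fold, adjusted p = 0.0449). These standard errors rest on 1 spread shared by all 9 arrays. For Jak2, Ghr and Stat5b the controls, which are not compared here, spread least. The SD of Stat5b was 0.011 in control, 1.12 in early and 0.41 in late muscle.

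The call of Cish held under each of 19 other settings, with adjusted p between 0.000132 and 0.0484. Cish passed the filter only through its control and late arrays, since its early values lay under the floor. It was also chosen with its low early values known, so these settings give no independent support. The calls of Ghr, Stat5b and Jak2 each ended when any array other than early 3 was left out, with adjusted p up to 0.0989, 0.118 and 0.0993. With only the compared groups fitted, or with no filter, Cish was the only member called. Ghr had an adjusted p of 0.114 and 0.0729 in these fits. The Ghr call rests on a probe set of a type that can read other transcripts. Without such probe sets the next brightest Ghr probe set was tested. Ghr then differed by -0.94 and was not called (adjusted p = 0.0595), which left 3 members called. The dimmest Ghr probe set, also not of that type, was called when tested singly (-1.9999 ± 0.31, adjusted p = 0.0143). Its values of 5.74, 5.23 and 6.48 in early 1, 2 and 3 were not far above the floor of 5. With the replicate number as a block, Stat5b was not called (adjusted p = 0.0586). As the mean of its 2 probe sets, Stat5b differed by -0.98 (adjusted p = 0.0486). Without early 3, where 30.6% of all genes were called, 6 of the 9 were: these 4, Socs2 (-1.61) and, higher in early muscle, Stat5a (0.73). Tested one by one, 6 of 19 probe sets were called, where 11.2% of all probe sets were. These were Cish, 2 of 3 for Ghr, both for Jak2 and the brighter of 2 for Stat5b; the dimmer Stat5b probe set differed by -0.14 ± 0.14.

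The other members were not called between early and late muscle. Igf1 differed by -0.16, with an interval from -1.12 to 0.79, and its 4 probe sets ranged from -0.24 to 0.34. Socs2 differed by -0.92, from -2.204 to 0.37, and by -1.97 ± 0.60 on its second probe set (adjusted p = 0.0637). Stat5a differed by 0.45, from -0.15 to 1.04. Bcl6 (-0.25) and Socs3 (-0.21) had intervals that included 0.

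Other genes of the pathway were taken from lists set by name, and their counts stand beside 1.19%, 0.206% and 11.5% of all genes called in early against control, late against control and early against late. Whether a list differs from that share was not tested. The lists, too, were chosen with earlier results of these data known, so their p values are not independent of that choice. The genes named have the smallest p of their list. Of 15 further growth hormone receptor signalling genes tested, 0 passed in early or late against control, and in early against late 3 were lower and 1 higher. Sh2b3, an adaptor that restrains JAK2 signalling, differed by -1.09 ± 0.24 (adjusted p = 0.0299), Crk, an adaptor, by -0.62 ± 0.16 (adjusted p = 0.0455) and Prkca, a protein kinase C, by -0.88 ± 0.24 (adjusted p = 0.0498). Grb2, the adaptor that links receptors to RAS, was higher by 1.04 ± 0.27 (adjusted p = 0.0437), but by 0.40 as the mean of its probe sets (adjusted p = 0.177). That mean also ended the calls of Prkca (-0.41, adjusted p = 0.137) and Crk (-0.53, adjusted p = 0.0962), as did the replicate block (adjusted p = 0.0581 and 0.0592). The list's median was -0.04, beside -0.03 for all genes. The calls of Grb2, Crk and Prkca each remained in only 1 of 9 fits that left out an array, and that of Sh2b3 in 3.

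Of 11 further STAT5 targets tested, 1 passed, in early against late only. Pim1, a survival kinase, was higher in early muscle by 1.16 ± 0.26 (adjusted p = 0.0314), at 7.64, 7.49 and 6.84 in early 1, 2 and 3, against 5.74 to 6.39 in late and 6.14 to 6.61 in control muscle. Its direction was opposite to that of Cish, and its call remained in 2 of 9 fits that left out an array. In early against control its difference was 0.92 ± 0.26 (adjusted p = 0.146). The medians of the 11 were -0.05, -0.24 and 0.24 in early against control, late against control and early against late. Cdkn1a, a cell cycle inhibitor, was not called and stood at 12.52 and 11.32 in early 1 and early 2 and at 8.98 in early 3, beside 8.89 to 9.26 in the controls and 10.29, 8.51 and 9.04 in late 1, 2 and 3.

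None of the 4 further SOCS genes tested (Socs4, Socs5, Socs6 and Socs7) passed in any comparison; Socs1 is on the array and was not bright enough to test. Of 8 further JAK and STAT family genes 1 passed, Pias2, an inhibitor of STAT signalling, lower in early than late muscle by 0.90 ± 0.24 (a difference of -0.90, adjusted p = 0.0449); Stat3 differed from control by 0.47 ± 0.19 in early muscle (adjusted p = 0.237). Of 24 further IGF signalling genes, 0 passed against control, and in early against late 3 were lower and 1 higher. Tsc2, which restrains mTOR, differed by -1.03 ± 0.22 (adjusted p = 0.0272), Mtor itself by -0.69 ± 0.16 (adjusted p = 0.0341), Pik3r1, a regulatory subunit of PI3 kinase, by -1.36 ± 0.37 (adjusted p = 0.0491) and Pdpk1, a kinase that activates AKT, by 1.13 ± 0.28 (adjusted p = 0.0386). Leaving out 1 array ended these calls in 6 to 8 of 9 fits, and the call of Pias2 in 8. As the mean of their probe sets, Pdpk1 (0.69, adjusted p = 0.0889), Pik3r1 (adjusted p = 0.0519) and Pias2 (adjusted p = 0.0516) were not called. Igf2, the related growth factor, differed from control by -0.91 ± 0.38 in early and by -1.47 ± 0.38 in late muscle (adjusted p = 0.25 and 0.128).

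As a description, the genes whose levels over the 9 arrays were most like those of Cish were Sel1l3 (Pearson r = 0.985), Tirap (0.983), Adcy9 (0.982) and Tle4 (0.977). All 4 had their lowest group mean in early and their highest in late muscle, as Cish did; Tle4 stood at 8.81 in control, 7.85 in early and 9.23 in late muscle. For Igf1 they were Trim35 (0.982), Tet1 (0.974), Slc41a3 (0.972) and Nrep (0.968), all lower in both induced groups; Tet1 stood at 7.02 in control, 5.10 in early and 5.11 in late muscle. For Socs2 they were 2310067E19Rik (0.970), Ggact (0.969), Fzd9 (0.967) and Gm15408 (0.967). These 3 sets of 4 did not share a gene.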

How the data were processed

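Biotin-labelled copies of total RNA were read on 9 Affymetrix arrays, per the labels' protocols. The authors' deposited values are log2 expression per probe set from GCRMA, per the submitters' processing notes; no GCRMA version is given in the sources used here. GCRMA compresses dim probe sets towards a common background and aligns the arrays' distributions. The number of arrays, 3 per group, limits the precision. Each array was 1 sample; no label says whether same-group samples share anything, and p values measure only the spread between these samples.

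Genes were named from the platform annotation. Probe sets naming 1 gene with a log2 value above 5 in at least 3 arrays were kept (16048), and the brightest of each gene was tested (9697 genes). limma 3.58.1 in R 4.3.3 fitted 3 group means to all 9 arrays (6 residual and 2.84 prior degrees of freedom), with Benjamini-Hochberg adjustment over all genes, called at an adjusted p under 0.05; every adjusted p is from limma. Single probe sets were tested the same way over all 16048. The script was tested on simulated data.

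The members and lists were chosen with earlier results of these data known. Genes named are the 9 members, up to 4 further genes per list with the smallest p in a comparison, and the 4 genes most like Cish, Socs2 and Igf1. Alternatives were other filters, probe set choices, scalings, array weights, fewer arrays and a replicate block. Deviations of same-numbered early and late arrays from their group means correlated at 0.168, 0.201 and 0.16 over genes, all above 0.1. For early and control they gave 0.35, 0.11 and -0.0391, and for late and control 0.0847, -0.165 and -0.11. No label says that the numbers pair samples. The main fit did not use the numbers, which entered only the replicate block, an alternative fit.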

Additional observations from a re-analysis of the deposited data

Results flagged for a closer look

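In 4 members the early and late differences from control were themselves different, by the test of early against late (limma, adjusted p under 0.05 over all genes). The difference was -4.02 for Cish, -1.15 for Ghr, -1.82 for Stat5b and -1.39 for Jak2. This test shares the early arrays with the contrast that led to the choice of genes, so it is not independent of that choice. All 3 early Cish values lay under the filter's floor of 5, and Cish passed the filter only through its control and late arrays. With early values raised to the floor, its difference was -2.71. The calls of Ghr, Stat5b and Jak2 each ended when any array other than early 3 was left out, and when only the compared groups were fitted. On the second Stat5b probe set the difference was -0.14. For Cish, all 3 early arrays lay below the control mean and all 3 late arrays above it. For Jak2 the same held, while for Ghr and Stat5b 1 array of the early or late group lay at or on the other side of that mean: late 1 Ghr was 12.43 beside a control mean of 12.43, and early 3 Stat5b was 10.69 beside a control mean of 10.64. Late mice were older, so the timing of induction and age cannot be told apart here.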

How the results depend on the processing

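With no filter, 56 genes were called in early against control, 584 in early against late, and of the members 0 and 1. Fitting only the compared groups gave 61, 12 and 38 genes in early against control, late against control and early against late, and 0, 0 and 1 members. Array weights, whose estimation stopped before full convergence and which gave early 3 a weight of 0.238 and control 2 one of 3.39, gave 3335, 1037 and 3534 genes and 7, 2 and 6 members. The replicate block gave 62 genes in early against control and 5 in late against control; among the members it ended only the call of Stat5b in early against late, leaving 3. Without shared-probe sets, 12 genes were called in late against control.

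Leaving out 1 array gave 6 to 1756, 5 to 58 and 143 to 2960 genes in the 3 comparisons, and 0 to 5, 0 to 0 and 1 to 6 members; each highest count was without early 3, apart from the members of late against control, none of which was called in any of these fits. Directions of uncalled members near 0 turned on leaving out 1 array: in late against control Socs2 (-0.60 to 0.041), Socs3 (-0.45 to 0.13), Bcl6 (-0.32 to 0.15; 0.10 and 0.15 without control 2 and late 2) and Stat5a (-0.35 to 0.0040), and in early against late Socs3 (-0.54 to 0.13; 0.04 without late 1), Igf1 (-0.69 to 0.13; 0.09 and 0.07 without early 1 and late 2) and Bcl6 (-0.58 to 0.030). Igf1 in early against late was 0.023 as the mean of its probe sets. Of the other member results, 246 of those without an array left out kept direction and call, 10 lost the call and 10 gained it.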

Other observations

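Of receptors that signal through related kinases, 3 were called lower in early than late muscle. Lifr, the receptor for leukaemia inhibitory factor, stood at 10.08, 10.63 and 11.05 in early 1, 2 and 3, at 11.66, 11.80 and 11.92 in the late arrays and at 11.21, 11.37 and 11.41 in the controls, and was lower in early than late muscle with a difference of -1.21 ± 0.23 (limma, adjusted p = 0.021); the call remained in 7 of 9 fits that left out an array. Il6st, the signal chain that LIF and interleukin-6 receptors share, differed by -0.73 ± 0.18 (adjusted p = 0.0413), and Lepr, the leptin receptor, by -1.15 ± 0.28 (adjusted p = 0.0377); these calls remained in 2 and 1 of 9 such fits, and the replicate block ended that of Lepr (adjusted p = 0.056). Il6st was not called as the mean of its probe sets (adjusted p = 0.0518). In all, 2 of 11 further genes of the interleukin-6 and STAT3 list and 1 of 5 further receptors that use JAK2 and STAT5 were called lower and none higher, where 11.5% of all genes were called in either direction; no gene of either list passed against control.

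Of 20 glucocorticoid response genes, 16 had a positive difference in late against control, with a median of 0.68 beside 0.01 over all genes, and 0 passed by limma there. Tsc22d3, a glucocorticoid-induced regulator, was 11.88, 11.70 and 11.04 in late 1, 2 and 3, and 10.12 to 10.20 in early muscle, a difference of -1.37 ± 0.26 in early against late (adjusted p = 0.0206), whose call remained in 5 of 9 fits that left out an array. Sgk1, a kinase induced by the same hormones, differed by -1.18 ± 0.32 (adjusted p = 0.0485; 2 of 9), and was not called with the replicate block (adjusted p = 0.0559). In early against control, 11 of the 20 genes had a negative and 9 a positive difference, with a median of -0.16 beside -0.03 over all genes. Sgk1 differed by -1.20 ± 0.32 there and was not called (adjusted p = 0.131). Only 1 of the 20 was called there, Fbxo32, where 1.19% of all genes were. Fbxo32, the atrogin ligase, was 11.79, 12.22 and 10.88 in the early arrays and 9.57 to 9.84 in the controls, a difference of 1.88 ± 0.35 (adjusted p = 0.0446). Of the 9 fits that left out an array, its call remained only in that without early 3; it was also lost with the mean of its probe sets (adjusted p = 0.0512), quantile normalization (adjusted p = 0.0505), the replicate block (adjusted p = 0.108), no filter (adjusted p = 0.127) and the compared groups alone (adjusted p = 0.08).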
